A study of Mus musculus with 2 samples.

Results

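The cells described here are the barcodes of an adult mouse testis suspension that were rich in early meiotic transcripts, a gate meant to take spermatocytes at the leptotene and zygotene stages. A barcode entered the gate when its unique molecular identifiers (UMIs, the counted RNA molecules) for Meioc, Hfm1, Tex11, Msh5, Terb1, Meiob, Tex15 and Prdm9 summed to at least 5, made up at least 6 of every 10000 UMIs, and came with fewer than 3 UMIs of Stra8. The gate held 612 of 28245 barcodes, or 2.17% (95% exact Clopper-Pearson interval 2.0 to 2.34%). Because measured counts chose these barcodes, the levels of the 8 genes and of Stra8 are given as a description and nothing is read from them.

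The study set wild-type mice beside miR-202-/- mice, which lack the microRNA miR-202, and profiled total testicular cells of adults of strain C57BL/CJ;ICR on a droplet platform that reads the 3′ ends of polyadenylated RNA. Debris was removed by flow sorting, and each genotype gave 1 library, so the deletion is carried by all cells of 1 library and by none of the other. The deposited table pools both libraries under barcode suffixes 1 and 2, and no label ties a suffix to a genotype. Gene levels in CPM and summed marker levels are therefore given for suffix 1 and then suffix 2 unless a single pooled value is printed, the suffixes are not replicates, and no comparison between genotypes and no test was made.

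Leptotene is the stage at which homologous chromosomes condense onto protein axes and the SPO11 enzyme cuts the DNA at sites marked by PRDM9. In zygotene recombinases such as DMC1 carry the cut ends to the homologue, telomeres gather at the nuclear envelope, and the synaptonemal complex begins to join the axes. At pachytene, when synapsis is complete, the X and Y chromosomes are silenced in the sex body and piRNA-pathway transcripts accumulate.

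The study's deleted gene encodes a microRNA whose 3p arm shares its seed, bases 2 to 8, with the let-7 family member let-7j and is close to the seed of let-7a. These mature sequences are shown because the seed defines the target list used further on. They come from RefSeq on GRCm38.p6, 5′ to 3′, with the seed in capitals. The miR-202-3p sequence lies at chr7:139957695-139957716 on the minus strand. Only mature mouse names of miR-202, let-7 and miR-98 were searched. Among them, 2 names carried the seed GAGGUAU and 10 carried GAGGUAG.
miR-202-3p: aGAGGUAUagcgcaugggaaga
let-7j: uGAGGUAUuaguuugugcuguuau
let-7a-5p: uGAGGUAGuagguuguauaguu
miR-202-5p: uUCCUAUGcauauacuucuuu

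Suffix 1 contributed 336 gate barcodes of 12935 (2.60%, 2.33 to 2.89%) and suffix 2 contributed 276 of 15310 (1.80%, 1.60 to 2.03%). Gate barcodes held between 3588 and 66155 UMIs, with medians of 8909 and 8955 under the suffixes. Mitochondrial transcripts made up a median 4.11% of their UMIs against 4.51% in barcodes with at least 3 Stra8 UMIs, 2.26% in barcodes rich in PIWI and tudor-domain transcripts, 1.82% in Sertoli barcodes and 0.258% in all other barcodes. The suffixes shared 73 barcode sequences in the whole table and 0 in the gate. Intervals throughout cover counting error only.

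Membership rested mainly on a pair of genes. Tex15, which is needed to load recombinases and to silence transposons in the male germ line, gave 3208 of the counted gate-gene UMIs (41.1%) and was seen in 86.6% of members. Meioc, a partner of YTHDC2 that sustains meiotic prophase, gave 2072 UMIs (26.6%) and was seen in 75.2% of members. Without Tex15 in the sum, 285 of the 612 barcodes still met the rule, and without Meioc 384 did. The other 6 genes were needed less often. They are Hfm1 (a DNA helicase of crossover formation, 610 UMIs), Tex11 (an X-linked crossover factor, 590), Terb1 (which ties telomeres to the nuclear envelope, 490), Meiob (a single-strand DNA binding protein, 453), Msh5 (a MutS homologue of crossover sites, 217) and Prdm9 (159). A median member carried 10 UMIs of 4 of the 8 genes. In 35 members all of them came from 1 gene, 314 showed 4 or more genes, and 3 showed all 8.

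The 8 genes lie on 5 chromosomes of GRCm38. Meioc spans chr11:102663716-102682237 on the plus strand and Hfm1 chr5:106840192-106926321 on the minus strand. Tex11 spans chrX:100838648-101059667 (minus) and Meiob chr17:24804289-24839788 (plus). Msh5 lies at chr17:35028605-35046745 (minus) and Prdm9 at chr17:15543079-15564354 (minus), both on the chromosome of Meiob. Terb1, at chr8:104446719-104509910 (minus), and Tex15, at chr8:33516738-33585582 (plus), share a chromosome.

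Promoters of 2 gate genes and 2 further prophase genes are shown because they hold the letters of motifs tied to this stage. Windows run from 250 bases before to 50 after the RefSeq start on GRCm38.p6, and both strands were searched for 4 motifs. These were CNCCTCAG (the core of the site bound by STRA8), TAACNGT (the core bound by A-MYB), GCGGGAA (an E2F-type string) and an NRF1 motif. Capitals mark the matches. A match is a string in the window and not evidence of binding.
Hfm1, chr5:106925841-106926140, minus strand, 2 matches of CNCCTCAG and 1 place that matches the NRF1 motif on both strands: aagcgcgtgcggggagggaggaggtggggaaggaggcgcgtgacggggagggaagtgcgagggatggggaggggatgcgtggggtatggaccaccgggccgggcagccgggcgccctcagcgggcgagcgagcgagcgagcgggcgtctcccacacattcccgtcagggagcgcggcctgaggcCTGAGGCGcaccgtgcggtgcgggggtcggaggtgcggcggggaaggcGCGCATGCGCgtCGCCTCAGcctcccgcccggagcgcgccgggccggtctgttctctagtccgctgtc
Msh5, chr17:35046573-35046872, minus strand, CNCCTCAG and GCGGGAA: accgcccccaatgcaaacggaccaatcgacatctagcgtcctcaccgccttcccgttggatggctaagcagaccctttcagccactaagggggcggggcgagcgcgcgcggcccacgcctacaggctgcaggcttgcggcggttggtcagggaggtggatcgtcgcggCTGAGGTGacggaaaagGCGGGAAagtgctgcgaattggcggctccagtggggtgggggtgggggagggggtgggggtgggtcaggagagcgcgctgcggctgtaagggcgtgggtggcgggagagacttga
Sycp1, chr3:102936051-102936350, minus strand, CNCCTCAG and TAACNGT: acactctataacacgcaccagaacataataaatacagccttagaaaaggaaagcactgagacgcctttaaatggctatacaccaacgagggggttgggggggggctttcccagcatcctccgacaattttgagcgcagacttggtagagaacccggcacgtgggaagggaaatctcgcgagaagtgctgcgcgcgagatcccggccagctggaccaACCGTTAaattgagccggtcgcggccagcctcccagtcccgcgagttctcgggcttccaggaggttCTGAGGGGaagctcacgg
Rad51ap2, chr12:11455805-11456104, plus strand, TAACNGT and GCGGGAA: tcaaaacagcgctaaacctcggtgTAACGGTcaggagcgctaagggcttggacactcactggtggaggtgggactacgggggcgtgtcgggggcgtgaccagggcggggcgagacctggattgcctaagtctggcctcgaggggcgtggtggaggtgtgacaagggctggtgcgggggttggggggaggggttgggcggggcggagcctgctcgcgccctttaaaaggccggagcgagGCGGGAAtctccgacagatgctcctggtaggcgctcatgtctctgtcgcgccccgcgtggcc

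Of the 20476 genes in the table, 14653 had a promoter window, and CNCCTCAG stood in 10.7% of these, TAACNGT in 6.25%, GCGGGAA in 8.03% and the NRF1 motif in 8.78%. Among the 5 gate genes with a window, 3 held CNCCTCAG, 3 held GCGGGAA, 2 held the NRF1 motif and 0 held TAACNGT.

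Markers outside the rule were used to check the stage. Levels are given in CPM, a gene's UMIs scaled to all UMIs of the set, where 1 UMI in 10000 equals 100 CPM; with 3′ end counting they are not divided by gene length. Sycp3, which builds the chromosome axis, stood in 85.6% of gate barcodes (63.7% after thinning every barcode to 3000 UMIs). In the 1403 barcodes chosen by Sertoli markers it stood in 44.3% (28.5% thinned). The median depth of these Sertoli barcodes was 4993 UMIs against 8952. They also carried spermatid RNA. Protamine and transition protein genes gave 564 UMIs per 10000 in their median barcode, against 546 in all other barcodes. The Sertoli set is thus not a background free of germ-cell RNA. Dmc1, the meiosis-specific recombinase, stood in 31.2% of gate barcodes (14.2% thinned) against 1.5% (0.570% thinned) of Sertoli barcodes. It stood in 45.4% (21.6% thinned) of the 218 Stra8 barcodes, with at least 3 Stra8 UMIs, whose level of 85.8 and 59.6 CPM was above the 39.9 and 42.6 CPM of the gate. The gate was not uniform in these markers. Only 259 of its barcodes carried at least 20 UMIs per 10000 of the axis genes Sycp1, Sycp2, Sycp3 and Hormad1, and 353 carried fewer.

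The axis markers of the label were thus low in most members. Members were split on 3 measures, with cuts chosen after their values were seen: the axis genes at 20 per 10000, the share of UMIs from X-linked genes other than Tex11 at 0.5%, and a list of 23 spermatogonial genes at 3 per 10000. The split gave 4 ranges, which are stretches of continuous scales and not cell types. An axis-rich X-active range held 165 barcodes (27.0%), an axis-rich X-low range 94 (15.4%), an axis-poor spermatogonial range 205 (33.5%) and an axis-poor remainder 148 (24.2%). Near the cuts lay 49 barcodes between 15 and 25 axis UMIs per 10000, 50 axis-rich barcodes with an X-linked share between 0.25 and 0.75%, and 37 axis-poor barcodes with 2 to 4 spermatogonial UMIs per 10000.

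**Figure D1:**
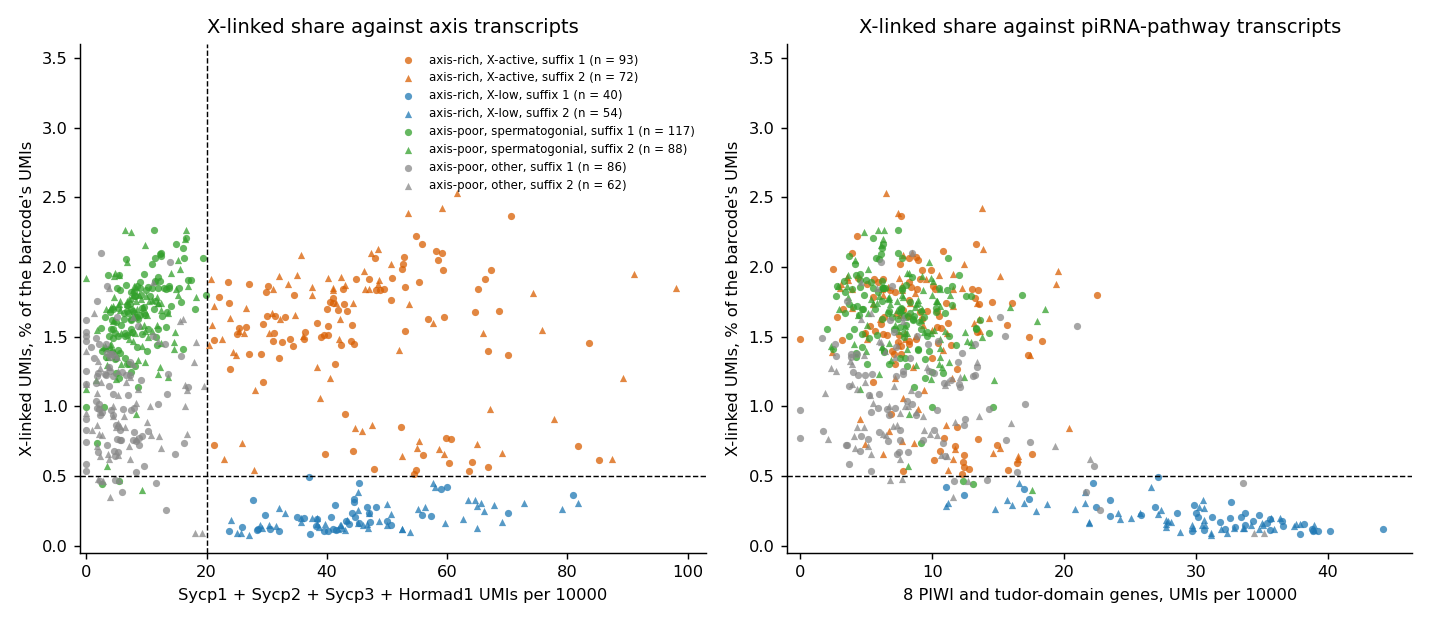
Each point is 1 of the 612 gate barcodes (circles, suffix 1; triangles, suffix 2), with its X-linked share in percent on the vertical axes and axis-gene UMIs per 10000 (left) or UMIs per 10000 of 8 PIWI and tudor-domain genes (right) on the horizontal axes; dashed lines are the cuts. The 94 axis-rich X-low barcodes lie under 0.5% X-linked UMIs and extend to the highest piRNA-pathway values, and the 353 axis-poor barcodes lie left of 20 per 10000.

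The ranges differed in RNA content. The X-active range had a median of 7523 UMIs, the X-low range 25521, the spermatogonial range 11302 and the remainder 5639. The X-low range, 15.4% of the barcodes, supplied 33.1% of all gate UMIs, so values summed over the gate lean on it. It made up 11.9% of the gate under suffix 1 (8.64 to 15.9%) and 19.6% under suffix 2 (15.1 to 24.7%), intervals that overlap. At an equal depth of 3000 UMIs the median number of genes seen was 1861 in the X-active range, 1777 in the X-low range, 1861 in the spermatogonial range and 1727.5 in the remainder. No doublet caller was run, and doublets were not removed.

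Transcripts of other testis cells were also present. Protamine and transition protein RNA, which spermatids make and which spreads through the suspension, was used for a rough index of free RNA, its level in a set as a percentage of its level over all barcodes of the table. The index was 36.8% in the X-active range, 12.8% in the X-low range, 24.6% in the spermatogonial range and 53.8% in the remainder. It was 41.7% in the Stra8 barcodes used for comparison further on, 12.7% in the tudor set, 117% in the Sertoli set and 102% in all other barcodes, so it is not a true share of UMIs. Markers of Sertoli cells, the somatic nurse cells of the tubule, summed over 13 genes to 3.96 and 2.91 UMIs per 10000 in the X-active range, where Wt1, Dhh and Gata1 had no UMI. They summed to 0.795 and 0.903 in the X-low range and to 40.0 and 40.7 in the Sertoli set. In all, 16 of 1419 barcodes with Sertoli markers fell in the gate (1.13%). Leydig cell markers reached 0.146 and 0.0686 per 10000 in the gate, and macrophage markers 0.0732 and 0.0715.

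The 8 gate genes were spread unevenly over the ranges, as a description of the rule. Meiob stood at 181 and 176 CPM in the X-active range, 56.4 and 83.1 in the X-low range, 2.69 and 2.78 in the spermatogonial range and 15.1 and 41.7 in the remainder. Hfm1 was likewise placed in the axis-rich ranges, at 157 and 150 CPM (X-active) and 122 and 150 (X-low), against 13.4 and 8.33 in the spermatogonial range. Tex15 had the other shape, at 570 and 563 CPM in the X-active range, 699 and 698 in the spermatogonial range and 565 and 527 in the remainder, but 16.6 and 31.1 in the X-low range.

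Prdm9, whose protein marks the cut sites, was at 75.5 and 65.1 CPM in the X-active range and at 0 and 1.44 in the X-low range. Its UMIs were seen in 35.8% of X-active barcodes against 0.428% of Sertoli barcodes. The Sertoli set leaves out gate members, so this contrast was partly set by the rule. Tex11, on the X chromosome, was at 80.5 and 114 CPM in the X-active range, 175 and 165 in the spermatogonial range and 0.925 and 0 in the X-low range. Stra8 itself, held low by the rule, was at 20.1 and 34.4 CPM in the X-active range and had no UMI in the X-low range. Meioc varied least among the ranges, from 186 and 169 CPM in the spermatogonial range to 399 and 398 in the X-low range. Terb1 lay between 112 and 119 CPM (X-active) and 20.2 and 13.9 (spermatogonial), and Msh5 between 54.1 and 70.6 (X-active) and 8.07 and 13.0 (spermatogonial).

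**Figure D2:**
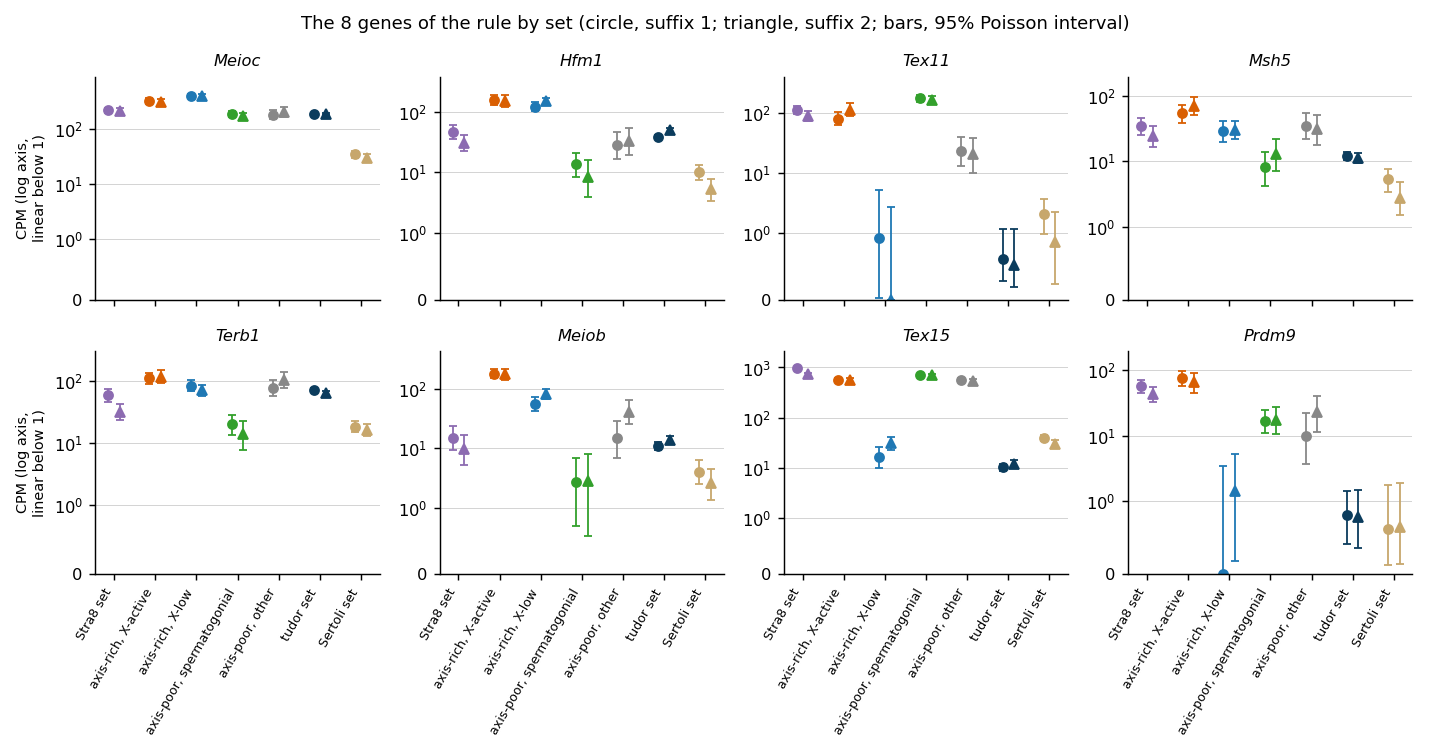
Levels of the 8 gate genes in CPM (log axis, linear below 1) in 7 sets of barcodes, for suffix 1 (circle) and suffix 2 (triangle) with 95% exact Poisson intervals as bars. Meiob peaks in the axis-rich X-active range at 181 and 176 CPM, and Tex11, Tex15 and Prdm9 lie lower in the axis-rich X-low range than in the X-active one.

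Neighbouring sets outside the gate served for comparison. Stra8 barcodes (218, with at least 3 Stra8 UMIs) carry the transcript of the factor that starts meiosis. Of them, 157 also met the gate's sum of the 8 genes and differ from members by the Stra8 limit alone. The 8 genes summed to 13.5 UMIs per 10000 in this set and 10.5 in the gate. The tudor set holds the 800 barcodes outside the gate with the highest share of UMIs from 8 PIWI and tudor-domain genes. Each had at least 10 such UMIs and fewer than 3 Stra8 UMIs. The set carries transcripts known from pachytene. A gene was called higher or lower when both suffixes agreed on the direction with a CPM ratio of 1.5 or more, and the set where it stood higher had no fewer than 50 CPM and 50 UMIs. This is a rule of size and not a test, and genes with at least 20 UMIs over both sets were counted as measured. Ratios are pooled over the suffixes with 95% conditional binomial intervals.

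Against all other barcodes, 1939 of 20451 measured genes were higher in the gate (9.48%) and 1326 lower (6.48%). Scaling by the median ratio, a shift of 0.75 on the log2 scale, gave 1190 higher, 35.2% of its calls. The 10 of highest ratio included the centromeric histone Cenpa, Hist1h2ap and Hist1h1a (histone-cluster genes whose near copies the counting may not separate), the chromatin regulator Kmt2a, the retinoid-binding protein Crabp1, the X-linked genes Tex13b, Map7d2, Bclaf3 and Taf1, and the testis protease gene Prss50. Cenpa and Crabp1 were concentrated in the axis-poor spermatogonial range, at 262 and 253 CPM for Cenpa and 225 and 217 for Crabp1. Crabp1 belongs to the spermatogonial list whose cut formed this range, so its level there was partly set by the cut. In the X-active range Cenpa was at 15.1 and 21.7 CPM and Crabp1 at 5.03 and 0. Prss50 was placed elsewhere, at 343 and 378 CPM in the X-active range, 112 and 92.5 in the spermatogonial range, 12.0 and 19.5 in the X-low range and 3.26 and 1.29 in the Sertoli set.

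Against the Stra8 barcodes, the gate as a whole was higher in 491 of 14007 measured genes (3.51%) and lower in 444 (3.17%). The 10 of highest ratio included Gml at 20.8-fold (14.2 to 32.0), the ceramide synthase Cers3 at 15.9-fold and the deubiquitinase Stambp at 10.9-fold. Cers3 was at 167 and 201 CPM in the X-low range and 21.4 and 21.7 in the X-active range. The piRNA pathway list had 9 of 23 measured members higher and 0 lower (4 and 0 after thinning), with Piwil1, a PIWI protein that binds pachytene piRNAs, 7.93-fold higher (6.77 to 9.34). Replication genes had 0 higher and 10 lower of 26 (0 and 6 after thinning, 1 and 16 after subtraction of a free RNA profile), among them Mcm5 at 2.12-fold lower. Lower genes also included the cyclin Ccnd2 (12.2-fold) and Xaf1 (24.2-fold), whose level in the Stra8 set was 85.8 CPM under suffix 1 and 24.9 under suffix 2. With scaling by the median ratio, 585 genes were higher and 377 lower.

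Against the tudor set, 1194 of 15640 measured genes were higher in the gate (7.63%) and 926 lower (5.92%); scaling by the median ratio, which shifts the middle gene by 0.31 on the log2 scale, gave 916 higher and 1393 lower. The largest ratios were in Bclaf3 (311-fold), Dmrt1 (277-fold), Crabp1 (253-fold) and Kmt2a (228-fold), each with few UMIs in the tudor set. Dmrt1, a regulator of the choice between mitosis and meiosis, was at 154 and 143 CPM in the spermatogonial range and 5.03 and 5.43 in the X-active range. Cell division genes had 10 of 28 measured members higher and 0 lower, and cohesin genes 7 higher and 1 lower of 19. Spermatid markers were higher as well, 10 of 15 round (1 lower) and 13 of 15 elongating (0 lower), and their part in these counts was not tested. Lower genes included the transcription factor Pou5f2 (5.73-fold, 4.86 to 6.80), the histone demethylase Phf2 (3.97-fold) and Them6 (3.68-fold).

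Since the gate mixes ranges, the axis-rich X-active range was set against the Stra8 barcodes, which carry a like X-linked share (1.45% against 1.70% of UMIs). Of 11277 measured genes, 507 were higher in the X-active range (4.5%) and 570 lower (5.05%). Scaling by the median ratio, a shift of 0.18 on the log2 scale, gave 260 higher and 818 lower. The 4 axis genes chose the range and are left out of its lists. This comparison uses the Stra8 barcodes of the previous one, so the results are not independent.

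Further genes of the synaptonemal complex and axis had 4 of 7 measured members higher and 1 lower (3 and 1 under median-ratio scaling, 2 and 0 after thinning), with a median log2 ratio of 0.67 against 0.02 over all measured genes. The central element gene 4930447C04Rik, also known as Six6os1, was at 193 and 156 CPM in the Stra8 set and 462 and 456 in the X-active range, 2.63-fold higher (2.33 to 2.98). Syce3, another central element gene, was at 229 and 161 CPM in the Stra8 set and 460 and 458 in the X-active range, a ratio of 2.36 (2.09 to 2.65). Both suffixes of the X-active range lay above both of the Stra8 set for each gene. Trip13, an ATPase that strips HORMA-domain proteins from the axis, was lower at 28.9 and 39.8 CPM against 79.8 and 67.1.

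Genes of double-strand break formation had 2 of 14 measured members higher and 1 lower, with a median log2 ratio of -0.15. Spo11, the enzyme that cuts, rose from 29.6 and 23.4 CPM in the Stra8 set to 101 and 97.7 in the X-active range, 3.75-fold (2.79 to 5.09). Ankrd31, which places breaks in the pseudoautosomal region shared by X and Y, was 2.32-fold higher (1.94 to 2.78). Atm, the kinase that limits further breaks, was 3.19-fold lower (2.31 to 4.51), at 22.6 and 45.2 CPM against 114 and 89.7.

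Strand exchange genes, which act on the cut ends, had 6 of 24 measured members higher and 3 lower; scaling by the median ratio gave 2 and 6. Rad51ap2, which encodes a recombinase-associated protein, showed the largest rise of the list, from 37.2 and 19.6 CPM in the Stra8 set to 240 and 230 in the X-active range, 8.32-fold (6.45 to 10.8). It was seen in 70.3% of X-active barcodes (51.5% thinned), 17.9% of Stra8 barcodes (8.72% thinned) and 0.998% of Sertoli barcodes, at median depths of 7523, 10584.5 and 4993 UMIs. It was near absent from the neighbouring spermatogonial range, at 0.672 and 0 CPM.

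Other members of the list that were higher include Mnd1, a partner of the HOP2 protein in strand invasion, at 2.47-fold (1.70 to 3.6), Psmc3ip, which encodes HOP2, at 1.55-fold, and Swi5 at 1.72-fold. Rad50, of the complex that trims the cut ends, was 2.08-fold lower. Dmc1 did not meet the size rule: it stood at 85.8 and 59.6 CPM in the Stra8 set and 123 and 163 in the X-active range, ratios of 1.44 and 2.73 under the suffixes.

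Crossover genes had 1 higher and 1 lower of 18 measured, near the 4.5% and 5.05% over all measured genes. Cntd1, which matures crossover sites, was higher at 96.9 and 110 CPM against 42.5 and 30.2 (2.82-fold, 2.16 to 3.70), and Exo1, a nuclease, was 3.85-fold lower. Telomere and nuclear envelope genes had 1 higher and 1 lower of 12. Spdya, a CDK2 activator at meiotic telomeres, was 2.16-fold higher, and Lmnb1, a lamin of the nuclear envelope, 2.70-fold lower. Cohesin genes had 0 higher and 2 lower of 17, the lower ones being Rad21, the mitotic kleisin, at 2.65-fold and Esco2, an acetyltransferase of S phase, at 1.94-fold. Smc1b, the meiotic cohesin subunit, was at 741 and 636 CPM in the Stra8 set and 964 and 1011 in the X-active range.

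Genes of ATR and MDC1 damage signalling, which act on unsynapsed axes, had 4 of 17 measured members higher and 2 lower (2 and 2 under median-ratio scaling). Atr was at 220 and 157 CPM in the Stra8 set and 414 and 402 in the X-active range, 2.17-fold higher (1.92 to 2.46). Mdc1 and Topbp1, adaptors of the same pathway, were 1.86-fold and 1.83-fold higher. Chek1, a checkpoint kinase of dividing cells, was 3.82-fold lower.

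**Figure D3:**
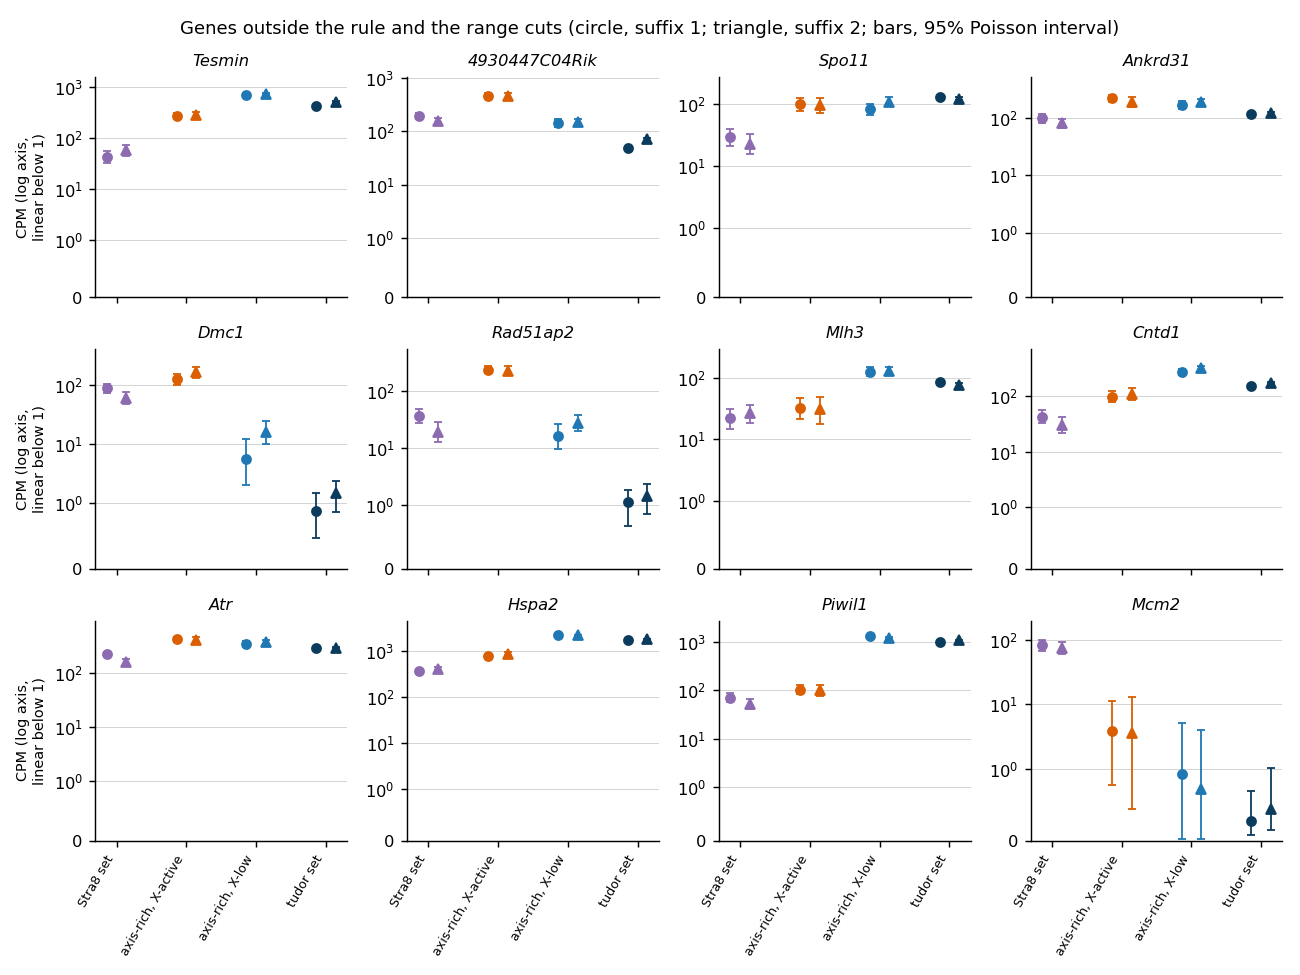
Levels in CPM of 12 prophase genes, picked after their values were seen, across the Stra8 set, the axis-rich X-active range, the axis-rich X-low range and the tudor set, for suffix 1 (circle) and suffix 2 (triangle) with 95% exact Poisson intervals. Rad51ap2 and Dmc1 are highest in the X-active range, Mlh3, Cntd1, Hspa2 and Piwil1 in the X-low range, and Mcm2 in the Stra8 set.

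Replication and nucleotide synthesis genes had 0 higher and 13 lower of 25 measured, with a median log2 ratio of -1.25 (0 and 15 under median-ratio scaling). Mcm2, a subunit of the replicative helicase, fell from 81.3 and 74.6 CPM in the Stra8 set to 3.77 and 3.62 in the X-active range, 21-fold lower (8.86 to 65.4) on 5 UMIs. Ung, a uracil glycosylase, was 5.61-fold lower and the dUTPase gene Dut 3.16-fold lower. Pcna, the replication clamp, was at 152 and 179 CPM against 153 and 165 and was not called. The maintenance methyltransferase Dnmt1 was 7.46-fold lower (5.05 to 11.5).

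Of 14 measured spermatogonial genes, 0 were higher and 6 lower (3 of 10 after thinning, 9 after subtraction of free RNA); this list entered the naming of the axis-poor ranges but not the choice of the X-active one. Uchl1, a neuronal and spermatogonial ubiquitin hydrolase, was at 535 and 602 CPM in the Stra8 set and 10.1 and 19.9 in the X-active range, 40.3-fold lower (25.7 to 67.1). Ccnd2 had 1 UMI in the X-active range, a ratio of 101 with a wide counting interval. Among entry genes, 1 was higher and 3 lower of 11. Ythdc2, an RNA helicase that works with MEIOC, was 2.22-fold higher. Sohlh1, a differentiation factor, was 58.9-fold lower (16.1 to 489) on 2 UMIs. Kit, the receptor of differentiating spermatogonia, was 23.9-fold lower (10.8 to 65.6) on 6 UMIs, and Dmrt1 18.9-fold lower (9.03 to 47.4).

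Division genes were split, with 4 higher and 4 lower of 27 measured (1 and 2 of 25 after thinning). Cdk1 (2.14-fold), Cdc20 (2.08-fold) and Bub1 (1.92-fold), which serve entry into and control of M phase, were higher. Ccna2, a cyclin of S phase and G2, was 6.37-fold lower, and Cenpa 6.01-fold lower (3.96 to 9.54). Mki67, a proliferation marker, was at 213 and 158 CPM in the Stra8 set and 200 and 217 in the X-active range, and was not called.

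Genes of the pachytene list had 5 higher and 0 lower of 24 measured against the Stra8 set, including Hspa2, a testis chaperone of the synaptonemal complex, at 784 and 890 CPM against 380 and 416 (2.08-fold, 1.91 to 2.26). Mybl1, which encodes the A-MYB regulator of pachytene transcription, was 3.06-fold higher (2.33 to 4.04), at 90.6 and 121 CPM against 38.7 and 28.6. The piRNA list as a whole had 2 higher and 1 lower of 23. Piwil1 was not called, at 103 and 99.5 CPM against 70.6 and 52.0. After subtraction of a free RNA profile, 18 of 21 pachytene genes and 6 piRNA genes were higher; spermatid and pachytene transcripts are part of that profile.

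The 10 largest rises of the X-active range also included Gml, a surface protein gene of the Ly6 family, at 161 and 215 CPM against 12.9 and 6.79 (18.6-fold, 12.4 to 29.1). Its neighbour Gml2 rose 8.18-fold, and how reads of the near copies were divided is not known. Tesmin, a testis regulator of meiosis, was at 272 and 284 CPM against 43.3 and 58.1 (5.46-fold, 4.47 to 6.70). Rexo5, an RNA exonuclease, was 6.01-fold higher (4.82 to 7.56) and Csf2ra, a cytokine receptor gene, 5.23-fold (3.32 to 8.47). Zfy2, a Y-linked zinc finger gene with a close copy in Zfy1, stood at 85.5 and 79.6 CPM against 9.87 and 5.28, 11-fold higher (6.78 to 18.7).

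Somatic transcripts stand beside these. Of 6 measured Sertoli markers, 2 were higher in the X-active range than in the Stra8 set and 0 lower, among them Defb19 at 69.2 and 28.9 CPM against 12.9 and 8.29, where the Sertoli set had 1299 and 1296. Ctsl, a cathepsin, was 1.99-fold higher. H2-K1, a class I histocompatibility gene picked after its value was seen, was at 354 and 451 CPM in the X-active range, 159 and 125 in the Stra8 set and 49.0 and 79.5 in the X-low range. The part of Sertoli RNA in these results was not tested.

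The axis-rich X-low range was then set against the X-active range. Of 10093 measured genes, 1244 were higher in the X-active range (12.3%) and 1007 were lower (9.98%). X-linked genes chose these ranges: of 303 X-linked genes with at least 50 UMIs in the gate, 301 had a lower level in the X-low range and 1 a higher one, which is a description. Y-linked genes did not enter the rule. Their 82 members summed to 621 and 628 CPM in the X-active range and to 72.1 and 52.0 in the X-low range, beside 52.6 and 71.1 in the tudor set and 498 and 440 in the Stra8 set. Zfy2 was 68.3-fold lower in the X-low range (22.8 to 336, on 3 UMIs), Usp9y, a deubiquitinase gene, 82.3-fold (22.1 to 690, on 2 UMIs) and Eif2s3y, a translation initiation factor gene, 28.8-fold (15.7 to 58.7).

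Autosomal genes were among the 10 of highest ratio in the X-active range as well. Kmt2a, a histone methyltransferase gene, was at 98.1 and 88.7 CPM against 0.925 and 1.44, 77.5-fold higher (25.9 to 381). The RNA-binding Elavl2 was 62.2-fold higher (16.6 to 524), at 46.5 and 56.1 CPM against 1.85 and 0, and its relative Elavl3 stood at 104 and 86.8 CPM against 0 and 5.78. The homeobox gene Pbx3 was at 135 and 134 CPM against 6.47 and 2.89. Prss50 was 22.1-fold higher (16 to 31.3).

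The recombination lists follow in the order of their steps, beside 12.3% higher and 9.98% lower over all measured genes. Break formation genes had 2 of 11 measured members higher in the X-active range and 0 lower. Hells, a chromatin remodeller that works with PRDM9, was at 315 and 385 CPM against 72.1 and 80.9 (4.46-fold, 3.76 to 5.31), and Zcwpw1, a reader of PRDM9 marks, was 3.64-fold higher (3.02 to 4.40). Strand exchange genes had 3 higher and 3 lower of 24, near those shares (6 and 1 after subtraction of free RNA). Dmc1 was at 123 and 163 CPM against 5.55 and 15.9, 12.3-fold higher (8.23 to 19), and Rad51ap2 10.2-fold (7.68 to 13.8). Psmc3ip was 2.37-fold lower in the X-active range, at 198 and 259 CPM against 539 and 517.

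Crossover genes had 0 higher and 3 lower of 18 measured (0 and 1 of 10 after thinning, 2 and 3 after subtraction of free RNA). Mlh3, whose protein marks final crossovers, was at 32.7 and 30.8 CPM in the X-active range and 126 and 128 in the X-low range, 3.98-fold lower (2.89 to 5.61). Cntd1 was 2.93-fold lower (2.44 to 3.54) and Ccnb1ip1, a ligase that limits crossover sites, 2.37-fold lower. Spo11 was at 101 and 97.7 CPM in the X-active range and 84.1 and 111 in the X-low range, and was not called. Smc3, the cohesin subunit, was 8.56-fold higher in the X-active range (6.90 to 10.7), at 372 and 327 CPM against 39.8 and 42.6, and Syce2, a central element gene, 2.90-fold higher.

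The piRNA pathway list had 0 of 23 measured members higher and 9 lower in the X-active range, with a median log2 ratio of -0.91 against 0.13 over all measured genes. Piwil1 was at 103 and 99.5 CPM against 1318 and 1213 in the X-low range, 12.4-fold lower (10.4 to 14.8). Tdrd1, a tudor scaffold of the nuage, was 8.55-fold lower (6.42 to 11.6), and Tdrd5 was 5.22-fold lower. Ddx4, the germ-cell helicase, was at 389 and 362 CPM against 807 and 851. In the tudor set, which was chosen on Piwil1 and 7 related genes, Piwil1 was at 1007 and 1081 CPM. With this Piwil1 level and Dmc1 at 5.55 and 15.9 CPM, the leptotene and zygotene label was not borne out for the X-low range. The X-linked share of the range, which the cut held low, was 0.182% (0.168% in the tudor set).

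Pachytene genes had 4 higher and 8 lower of 24 measured (1 and 13 of 22 after subtraction of free RNA). Hspa2 was 2.67-fold lower in the X-active range. Outside this list, Psma8, the testis proteasome subunit, was 5.86-fold lower. Among histones, 4 were higher and 8 lower of 21. Hist1h1t, a testis linker histone, was at 51.6 and 30.8 CPM against 306 and 221 (6.0-fold lower, 4.58 to 8.0), and H2afy, which encodes the macroH2A found on the sex body, was at 70.5 and 68.8 against 402 and 407. Stambp was at 22.6 and 41.6 CPM in the X-active range and 607 and 541 in the X-low range, 18.7-fold lower (13.7 to 26.2).

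Spermatid transcripts moved with the comparison. Of 15 round spermatid genes 10 were higher in the X-active range than in the X-low range, and 0 were lower; of 13 elongating spermatid genes 12 were higher and 1 lower. The summed level of the round spermatid list was 30.9 and 28.4 UMIs per 10000 in the X-active range against 10.8 and 10.7, and the elongating list 369 and 348 against 136 and 123. After subtraction of the free RNA profile, 4 of 13 round and 7 of 11 elongating genes were still called higher. Acrv1, an acrosome gene, was 2.13-fold higher before the subtraction and turned after it, to a log2 ratio of -2.20. The part of free RNA in the comparison of the ranges was not tested beyond these counts.

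**Figure D4:**
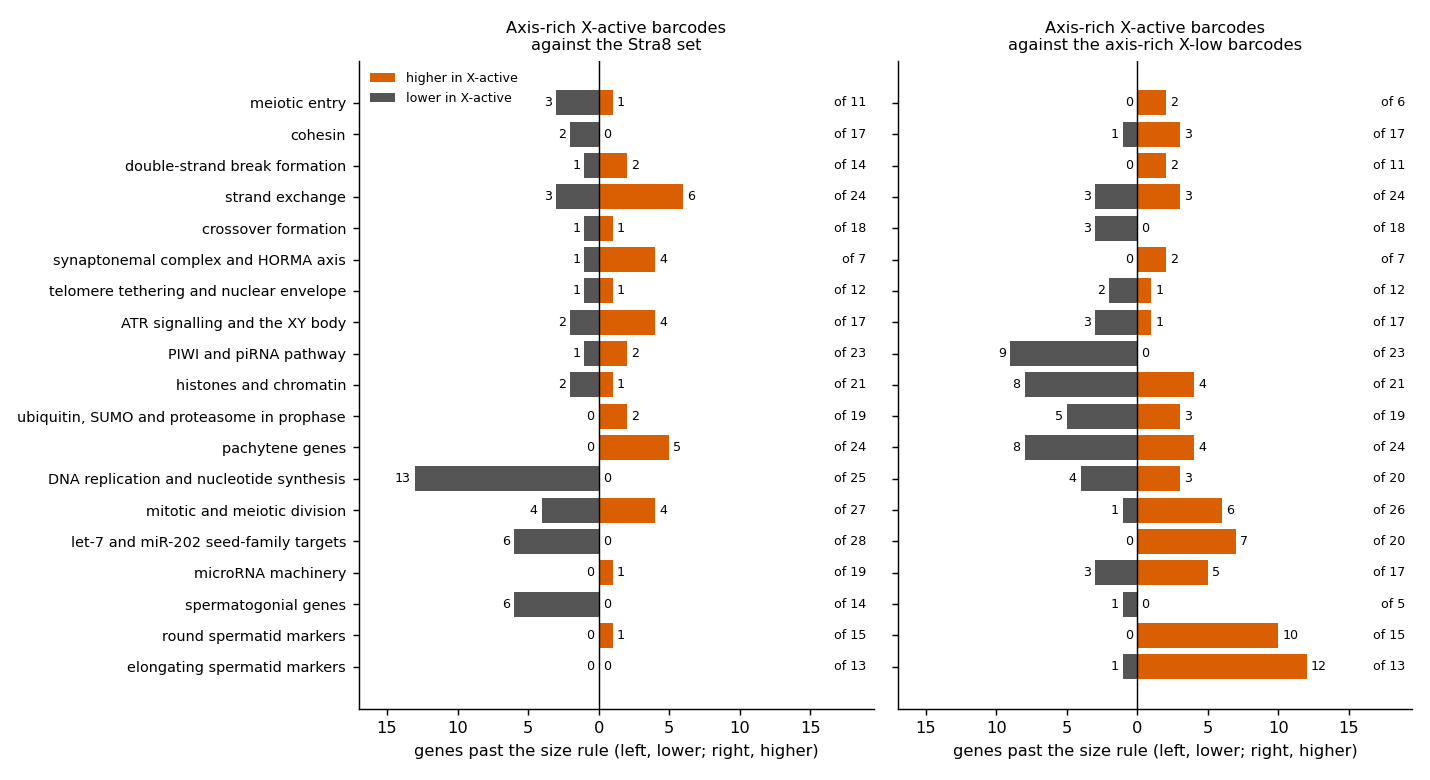
For 19 gene lists, the number of measured members called higher (right) or lower (left) in the axis-rich X-active range than in the Stra8 barcodes (left panel) and than in the axis-rich X-low range (right panel). Replication genes are 0 higher and 13 lower of 25 against the Stra8 set, and piRNA pathway genes 0 higher and 9 lower of 23 against the X-low range.

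A list of targets of the let-7 and miR-202 seeds, which are alike but identical only for let-7j, was followed because the study deleted miR-202, although no genotype is compared here. Against the Stra8 set, 0 of 28 measured targets were higher in the X-active range and 6 lower, with a median log2 ratio of -0.68. Over all measured genes, 4.5% were higher and 5.05% lower. Of the 6, Ccnd2 and Ccnd1 were also counted in the spermatogonial list and Rrm2 in the replication list. Thinning left 1 of 21 lower, and subtraction of free RNA gave 1 higher and 10 lower of 27. Trim71, a classical let-7 target, had 56.2 and 61.1 CPM in the Stra8 set and 0 UMIs in the X-active range, at least 26.3-fold lower against a floor of 3 counts over the group. Ccnd1, a cyclin, was at 5.03 and 7.24 CPM against 77.5 and 85.9, and Igf1r, a growth factor receptor, was 7.56-fold lower.

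Against the X-low range, 7 of 20 measured targets were higher in the X-active range and 0 lower, with a median log2 ratio of 0.87 (2 of 11 after thinning). Dicer1, which cuts microRNA precursors, was at 96.9 and 94.1 CPM against 16.6 and 20.9 (5.02-fold, 3.57 to 7.17), and Nr6a1, a germ-cell nuclear receptor, was 2.49-fold higher. Of the microRNA machinery genes, 5 were higher and 3 lower of 17 (2 and 1 of 14 after thinning). Tnrc6b, a scaffold of silencing complexes, was 10.2-fold higher (6.23 to 17.6), at 84.3 and 70.6 CPM against 8.32 and 7.22. Ago2, an Argonaute, was 2.12-fold lower, at 50.3 and 16.3 CPM against 78.6 and 75.8.

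Promoter strings were counted among the called genes as a description. CNCCTCAG stood in 14.8% of 997 promoters of genes higher in the X-active than in the X-low range, in 8.49% of 801 promoters of genes lower there, and in 11.5% of the 7940 measured ones. The NRF1 motif had the other order, at 9.13%, 17.6% and 13.6%. In the same order TAACNGT stood in 6.02%, 6.99% and 6.13%, and GCGGGAA in 10.0%, 10.2% and 9.94%. Against the Stra8 set, GCGGGAA stood in 12.2% of the higher, 15.1% of the lower and 9.89% of the measured promoters. There TAACNGT stood in 8.03%, 4.39% and 5.91%, CNCCTCAG in 12.4%, 12.9% and 11.3%, and the NRF1 motif in 14.8%, 16.7% and 12.8%. The Rad51ap2 window shown above holds GCGGGAA and TAACNGT.

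The axis-poor spermatogonial range carried few axis and recombination transcripts. Sycp3 was at 211 and 208 CPM there against 1707 and 1656 in the X-active range, and Dmc1 at 32.9 and 27.8 against 123 and 163. Spermatogonial genes were at 14.0 and 14.8 UMIs per 10000, a list that named the range. Ccnd1, a member of that list, was at 222 and 211 CPM. Transcripts the cuts did not use included Mki67 at 426 and 436 CPM, Mcm2 at 116 and 117 and Dnmt1 at 217 and 202. In the Stra8 set Mki67 was at 213 and 158 CPM and Mcm2 at 81.3 and 74.6. By Dmc1, Mki67, Mcm2 and Dnmt1, which the cuts did not use, the leptotene and zygotene label was not borne out for this range.

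The axis-poor remainder held the fewest UMIs and the most spermatid RNA. Its round spermatid list summed to 60.8 and 50.2 UMIs per 10000, beside 63.5 and 65.0 in all other barcodes. Sycp3 was at 156 and 288 CPM, against 120 and 110 in the Sertoli set, and Piwil1 at 171 and 283, against 130 and 84.9. Of its 148 barcodes, 11 had an X-linked share under 0.5%.

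The ordering within the gate was also followed without the axis cut, by dividing members into 4 bins of 153 barcodes each by their share of the 8 PIWI and tudor-domain genes. The X-linked share was 1.63%, 1.55%, 1.34% and 0.346% from the lowest bin to the highest. Median UMIs were 8211, 8229, 8753 and 17358, so depth rose with the order. The highest bin held 90 of the 94 X-low barcodes and 30 of the 165 X-active ones.

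Named genes had different shapes over these bins. Rad51ap2 was at 34.4, 75, 101 and 24.3 CPM, highest in the third bin. Meiob was at 29.1, 50.4, 84.0 and 70.1 CPM, and Dmc1 at 50.3, 74.3, 45.7 and 17.9. Sycp3, the axis protein gene, climbed from 407 and 543 to 891 and 1124 CPM. Mki67 was at 313, 386, 214 and 78.5 CPM, lowest in the bin richest in piRNA-pathway transcripts. Tex15 was at 659, 752, 547 and 95.3 CPM. Tex15 and Meiob belong to the gate's sum, so their levels over the bins were partly set by the rule and are a description.

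Axis-rich barcodes lay on both sides of the threshold. With exactly 5 gate UMIs, 100 members included 14 axis-rich ones and had 389 CPM of Sycp1; with 4 UMIs, 219 barcodes just outside included 11 axis-rich ones and had 262 CPM. Between 6 and 7 gate UMIs per 10000, 101 members had a median X-linked share of 0.547%. Between 5 and 6 per 10000, 129 barcodes outside had 0.241%, and 74 of them were axis-rich. A further 157 barcodes, all in the Stra8 set, met the sum of the 8 genes and were kept out by their Stra8 count.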

How the data were processed

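Adult testis suspensions of wild-type and miR-202-/- mice were profiled in 2 droplet libraries, 1 per genotype. The authors deposited 1 table of raw UMI counts, 20476 genes by 28245 barcodes; per the submitters' processing notes, Cell Ranger 1.3.1, Seurat 3.2.2 and GRCm38 were used, with no role or order given. The table's 2 barcode suffixes are not tied to genotypes, so the pool was 1 sample and no test was run. UMIs were summed over barcodes and scaled to CPM. Named genes were the gate genes, the 2 to 4 largest ratios of each gene list and the 10 highest and lowest of each comparison; the other genes given were picked after their values were seen, and some genes the rule names are not reported here. Positions came from GENCODE M21, which matched 20088 genes (98.1%). Alternatives were median-ratio scaling, thinning to 3000 UMIs, subtraction of a free RNA profile scaled to Prm1, Prm2, Tnp1 and Tnp2, and other cuts. Ratios to 0 use a floor of 3 counts over the group. No doublet caller was run. Members, lists, ranges and cuts were chosen with earlier results of these data known. The size rule was tested on simulated data. Python 3.11.15 with numpy 2.4.6, scipy 1.17.1, pandas 2.3.3 and matplotlib 3.10.9 was used.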

Additional observations from a re-analysis of the deposited data

How the results depend on the processing

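The share of barcodes in the gate, 2.17%, was 4.40% with a minimum of 3 UMIs, 1.46% with 8, 3.43% at 4 per 10000, 1.33% at 9 per 10000, 1.84% with Stra8 at 0 and 2.72% with no Stra8 limit. The X-linked share, 1.04%, was 1.44% at 9 per 10000, 1.02% with 8 UMIs, 0.949% without the 5 top X-linked genes, 1.03% without the barcodes richest in protamine and transition protein RNA, 1.25% thinned and 1.47% without the axis-rich X-low range; it stayed at 1.04% after free RNA subtraction. The X-linked share of the bin richest in piRNA-pathway transcripts, 0.346%, was 0.947% at 9 per 10000 and 0.633% thinned.

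Counts of higher and lower genes moved as follows. Gate against Stra8 set, 491 and 444: 299 and 250 thinned, 166 and 142 at 2-fold, 790 and 965 at 20 CPM, 152 and 172 at 9 per 10000, 1115 and 1160 without free RNA. Gate against tudor set, 1194 and 926: 1393 lower under median-ratio scaling, 558 and 236 at 2-fold, 2517 higher at 20 CPM. Gate against all other barcodes, 1939 higher: 1190 under median-ratio scaling, 3638 at 20 CPM. X-active range against Stra8 set, 507 and 570: 260 higher under median-ratio scaling, 235 and 344 thinned, 1183 and 1068 without free RNA. X-active against X-low range, 1244 and 1007: 591 and 403 thinned. Thinning leaves fewer UMIs under a fixed minimum of 50 and also gives each barcode equal weight. Of the 299 genes higher than in the Stra8 set after thinning, 206 were also called in the main setting. The cause of these moves was not tested for any setting.

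Of 3749 values of named genes under alternatives, 3168 kept direction and call, 576 kept direction only and 5 turned: Gsk3a thinned (log2 -0.18) and H2afy at 9 per 10000 (-0.15) against the Stra8 set, Tnp2 without free RNA against the tudor set (-6.54), and, between the axis-rich ranges, Acrv1 without free RNA (-2.20) and Gapdh at an axis cut of 15 (0.36). The settings of 2-fold and 20 CPM, with 272 of these values each, leave the ratios unchanged, so no direction could turn there. The 20 CPM minimum also could not lose a call. Free RNA subtraction gives no value against all other barcodes, since it removes that set's own RNA. No paired analysis was possible because the suffixes are not tied to samples and no result comes from a test. Low UMI numbers limit genes under 50 UMIs.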
